A study of Mus musculus with 2 samples.

Results

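The S phase Tregs described here were 131 single cells, 61 from the cKO library and 70 from the WT library, out of 8010 cell barcodes in the 2 libraries. Unique molecular identifiers (UMIs) each count 1 captured mRNA molecule, and barcodes were kept where 500 genes or more were detected and mitochondrial genes took under 10% of UMIs, 4026 of 4105 in cKO and 3842 of 3905 in WT. A regulatory T cell (Treg) was then taken as a cell with at least 2 UMIs of Cd3d, Cd3e and Cd3g together, at least 6 UMIs of Foxp3, Il2ra, Ikzf2 and Ctla4 together, at most 1 UMI of Cd8a and Cd8b1 and at most 3 UMIs of Lyz2, C1qa and C1qb. This left 2852 cKO and 3241 WT Tregs. The S phase Tregs were those with at least 6 UMIs of Pclaf, Rrm2, Tyms and Mcm5 together (the S phase sum) and at most 3 UMIs of Ube2c, Ccnb1, Ccnb2 and Cenpa together (the mitotic sum). They were set beside the non-cycling Tregs, 2048 in cKO and 1950 in WT, which held no UMI of Mki67 or Top2a. A further 149 cKO and 332 WT Tregs past both sums are called S-and-mitotic Tregs. Of the S phase Tregs, 3 in cKO and 12 in WT held no UMI of Mki67 or Top2a and were left out of the non-cycling class, while 2 cKO and 12 WT S-and-mitotic Tregs also counted as non-cycling.

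The cells were Tregs sorted from tumours of C57BL/6 mice aged 8 to 12 weeks. The cKO library came from mice with a Treg conditional knockout of Jmjd1c, a gene for a JmjC-domain histone demethylase, and the WT library from mice labelled wild type for Jmjd1c. In both, lymphocytes were taken from digested tumour on Percoll, enriched with magnetic beads, sorted by fluorescence and made into droplet 3′ RNA libraries. The labels used here give neither the tumour model, nor what drives or which exons carry the deletion, nor the number and sex of the mice. Each genotype is 1 library, so no test between genotypes is possible and every interval below covers counting error only.

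S phase is the part of the cell cycle in which the genome is copied. Before it, the MCM helicase is loaded at origins, and E2F transcription factors, released from retinoblastoma proteins by cyclin-dependent kinases, switch on genes for the replication fork, for deoxynucleotides and for new histones. Most Tregs in lymphoid tissue are resting, whereas those in tumours are activated by antigen and interleukin-2 and a share of them divide.

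Levels are given as CPM, the UMIs of a gene scaled to a total of 1000000 UMIs for its class in 1 library. Promoters of the genes that stood highest in the S phase Tregs are shown because they hold E2F-type core motifs more often than promoters at large. These genes were ranked in cells chosen by replication genes, so the motif shares below describe the class and test nothing. The E2F core was searched as TTCCCGC and in its variant forms, which were TTCGCGC along with TTGCCGC and lastly TTGGCGC. Both strands were searched in windows from 250 bases before to 50 after each RefSeq start (GRCm38.p6), and overlapping matches were marked as 1 run. Of the 20 genes highest in S phase Tregs by the rule given below, 14 matched the table by symbol and 8 of these held a motif (57.1%), against 2 of the 12 matched among the 15 lowest genes (16.7%). A motif was also in 877 of 4133 matched genes averaging 20 CPM or more (21.2%) and 2936 of all 27025 genes in the table (10.9%). Stmn1, Gins2, Hist1h1b, Hist1h2ap, Ccl5, Lilrb4a and Arhgap31 were among those not matched. A match is a description of letters, not of binding. Some RefSeq starts lie inside the gene, so the windows were set against the outermost start of each gene in GENCODE M21. The RefSeq starts of E2f1, Asf1b and Tcp11l2 lie 466, 187 and 321 bases downstream of it, and their windows hold no motif. With only RefSeq starts within 100 bases of it kept, a check chosen after seeing the data, 7 of 11 of the highest genes (63.6%), 1 of 6 of the lowest and 589 of 3071 of the genes averaging 20 CPM or more (19.2%) held a motif. The 4 highest and the 1 lowest gene with a single window within that distance are printed 5′ to 3′ along the gene's strand, with motif letters in capitals. They are Mcm3 at chr1:20820263-20820562 (minus strand), Prim1 at chr10:128014965-128015264 (plus strand), Hells at chr19:38930740-38931039 (plus strand), Clspn at chr4:126556730-126557029 (plus strand) and Klf2 at chr8:72318812-72319111 (plus strand).
Mcm3: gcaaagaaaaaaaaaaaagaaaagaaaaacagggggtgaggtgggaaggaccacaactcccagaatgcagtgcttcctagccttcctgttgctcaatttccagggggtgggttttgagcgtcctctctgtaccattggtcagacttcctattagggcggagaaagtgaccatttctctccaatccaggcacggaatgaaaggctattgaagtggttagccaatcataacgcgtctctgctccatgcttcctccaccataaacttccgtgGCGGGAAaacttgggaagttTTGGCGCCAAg
Prim1: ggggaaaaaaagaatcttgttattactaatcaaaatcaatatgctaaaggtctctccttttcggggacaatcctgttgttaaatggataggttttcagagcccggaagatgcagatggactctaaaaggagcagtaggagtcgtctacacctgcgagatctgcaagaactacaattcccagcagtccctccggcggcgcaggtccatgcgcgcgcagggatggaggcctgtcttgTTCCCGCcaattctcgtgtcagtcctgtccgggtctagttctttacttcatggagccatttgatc
Hells: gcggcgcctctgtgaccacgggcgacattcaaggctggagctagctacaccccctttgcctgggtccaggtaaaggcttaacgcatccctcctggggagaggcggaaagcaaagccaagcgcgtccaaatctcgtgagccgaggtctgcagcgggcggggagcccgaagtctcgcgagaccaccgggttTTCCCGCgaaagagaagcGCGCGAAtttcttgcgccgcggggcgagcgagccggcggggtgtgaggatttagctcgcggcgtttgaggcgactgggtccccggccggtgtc
Clspn: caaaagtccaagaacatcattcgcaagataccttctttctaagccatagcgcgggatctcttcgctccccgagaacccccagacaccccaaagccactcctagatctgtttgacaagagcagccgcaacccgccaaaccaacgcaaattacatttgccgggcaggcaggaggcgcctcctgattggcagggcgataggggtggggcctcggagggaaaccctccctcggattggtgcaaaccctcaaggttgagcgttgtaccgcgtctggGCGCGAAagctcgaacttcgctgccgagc
Klf2: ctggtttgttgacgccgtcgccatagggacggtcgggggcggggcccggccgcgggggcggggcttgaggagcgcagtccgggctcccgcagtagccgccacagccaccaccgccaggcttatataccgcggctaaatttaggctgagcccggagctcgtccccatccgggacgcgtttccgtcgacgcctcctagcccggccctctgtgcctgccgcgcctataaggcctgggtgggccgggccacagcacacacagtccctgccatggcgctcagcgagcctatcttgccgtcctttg
The Mcm3 and Hells windows held motif letters in 2 runs each and the Prim1 and Clspn windows in 1 run each, while that of Klf2 held none of these letters. By gene list, a motif was in the window of 13 of 21 matched origin-licensing genes (61.9%), 17 of 26 polymerase and fork genes (65.4%) and 11 of 22 E2F and G1/S cyclin genes. Not all replication lists shared this, as 3 of 13 deoxynucleotide supply genes held one (23.1%). In other lists a motif was in 8 of 17 purine and pyrimidine genes and 8 of 17 H3K9 genes (47.1% each). The H3K9 list shares members such as Uhrf1 with the chromatin assembly list. It was also in 7 of 17 glycolysis genes (41.2%), 8 of 40 G2 and mitosis genes and 1 of 18 type I interferon genes (5.56%).

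The libraries held 37666195 UMIs in cKO and 49063944 in WT, with medians of 6884 and 8946 UMIs per barcode, and shared 2 barcodes. Xist was at 0 UMIs in cKO S phase Tregs against 957 CPM in WT ones, and the Y-linked Ddx3y was at 60.8 CPM in cKO against 0 UMIs in WT. Genotype and the sex of the mice therefore cannot be told apart in any cKO and WT comparison below. Jmjd1c (chr10:67096125-67256326, mm10), the targeted gene, was at 59.8 CPM (95% counting interval 45.8 to 76.8) in cKO S phase Tregs and 54.3 (43.2 to 67.3) in WT ones, and 83.4 in cKO and 99.1 in WT non-cycling Tregs. These 3′ tags may lie outside the deleted exons, which the labels do not give, so the level checks nothing about the deletion.

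The 4 genes of the S phase sum, which chose the cells and are given as a description only, were spread unevenly over them. Pclaf, a PCNA-binding factor, had a median of 5 UMIs per cell (0 to 26) in cKO and 3 (0 to 30) in WT. Tyms, thymidylate synthase, had 3 (0 to 13) in cKO and 2.5 (0 to 12) in WT, and the helicase subunit Mcm5 had 4 (0 to 16) in cKO and 5 (0 to 12) in WT. Rrm2, a ribonucleotide reductase subunit, was sparsest, with a median of 1 UMI (0 to 17) in cKO and 0.5 (0 to 16) in WT. The S phase sum had a median of 11 in cKO and 9.5 in WT. At a sum of 6, just inside, stood 4 cKO and 9 WT cells, and at 5, just outside, 6 cKO and 10 WT cells. At a mitotic sum of 3, just inside the cap, stood 13 cKO and 11 WT cells, and at 4, just past it, 4 cKO and 14 WT cells. Pcna, the sliding clamp and no part of the rule, was at 280 CPM in cKO and 296 in WT just inside the S phase threshold and at 217 in cKO and 231 in WT just outside it.

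**Figure D1:**
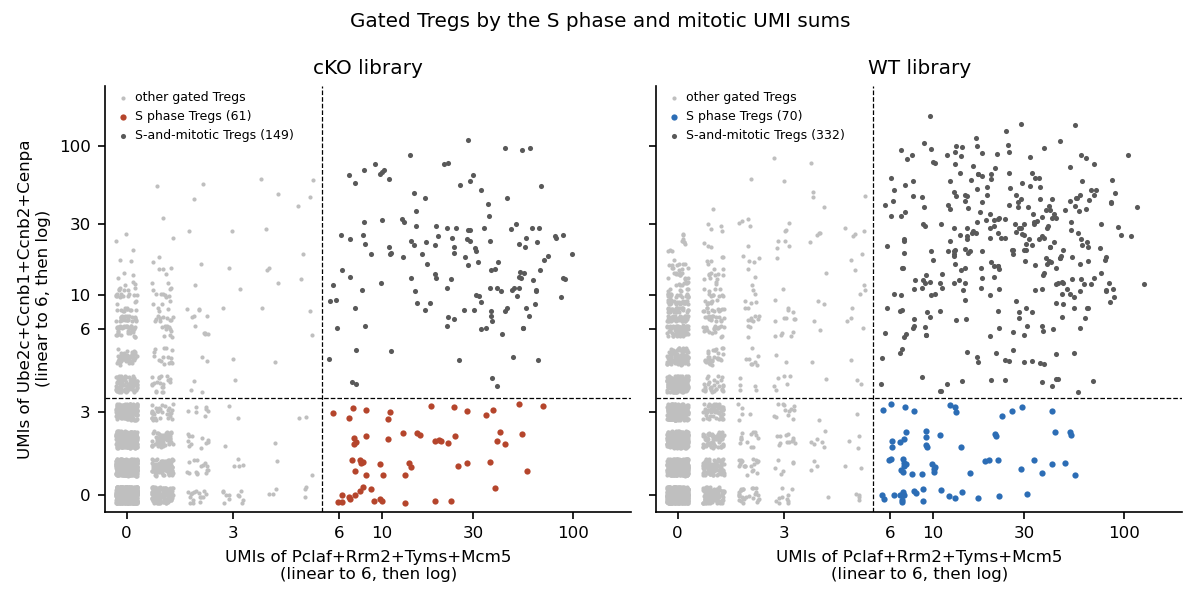
Each point is 1 gated Treg, by its UMIs of the 4 S phase genes (x) and of the 4 mitotic genes (y), both linear to 6 and logarithmic beyond, with points jittered; dashed lines mark the thresholds, cKO is on the left and WT on the right. The 61 cKO and 70 WT S phase Tregs fill the lower right, below 149 cKO and 332 WT S-and-mitotic Tregs.

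Of the mitotic sum, Cenpa, the centromeric histone H3 variant, was also common outside mitosis. It was at 55.9 CPM in S phase, 210 in non-cycling and 413 in S-and-mitotic cKO Tregs, and at 48.4 CPM in S phase, 258 in non-cycling and 459 in S-and-mitotic WT Tregs. The cap thus held the S phase Tregs below the non-cycling level of this gene. Without Cenpa in the cap, a rule tried after seeing the data, 30 more cKO and 80 more WT Tregs would have been S phase cells.

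S phase Tregs were a small share of the gated Tregs: 2.14% in cKO (61 of 2852, exact 95% interval 1.64 to 2.74) and 2.16% in WT (70 of 3241, 1.69 to 2.72). The S-and-mitotic Tregs were 5.22% (4.44 to 6.11) in cKO and 10.2% (9.22 to 11.3) in WT. A sum of UMIs is easier to reach in a deeper cell, and S phase Tregs had a median of 15035 UMIs per cell in cKO and 20878 in WT, against 5922 in cKO and 7340 in WT non-cycling Tregs. With every cell thinned to 4300 UMIs and shallower cells left out, S phase Tregs were 3.13% (73 of 2335, 2.46 to 3.92) in cKO and 2.35% (70 of 2975, 1.84 to 2.96) in WT. S-and-mitotic Tregs were then 1.11% in cKO and 1.24% in WT. Under the rule with Cenpa, the S phase shares overlapped in their counting intervals at both depths. The wider gap of the S-and-mitotic shares was not seen after thinning. Thinning lowers both sums of a cell, so fewer cells were past both, 26 in cKO and 37 in WT. The thinned classes therefore hold other cells, and the part of depth in the gap was not tested. Among macrophages, thinned alike as a background, 0 of 175 cells in cKO and 0 of 35 in WT reached the S phase sum, with exact 95% upper bounds of 2.09% in cKO and 10.0% in WT. Unthinned, 5 of 192 macrophages in cKO (2.60%) and 1 of 36 in WT (2.78%) reached it. No mitotic cap was set for macrophages, so their shares stand beside those of Tregs at any mitotic sum. Of gated Tregs, 7.36% in cKO and 12.4% in WT reached the S phase sum unthinned, and 4.24% in cKO and 3.60% in WT thinned. With Cenpa out of the cap the S phase shares were 3.19% (2.58 to 3.90) in cKO and 4.63% (3.93 to 5.41) in WT, with intervals that did not overlap. The cKO share was thus lower than the WT share under this cap and higher after thinning.

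S phase Tregs also had more genes per cell, with medians of 3542 in cKO and 3970 in WT against 2044 in cKO and 2293 in WT non-cycling Tregs. Thinned to 4300 UMIs the medians came close: 1668 in cKO and 1648 in WT S phase Tregs against 1655 in cKO and 1641 in WT non-cycling Tregs. Ribosomal protein genes took a median of 20.3% of UMIs in cKO and 25.5% in WT S phase Tregs, against 16.6% in cKO and 21.8% in WT non-cycling Tregs.

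Ratios are given below as log2 of CPM with 5 CPM added to each value, which understates ratios of sparse genes. In S phase against non-cycling Tregs, 307 of 5129 genes averaging 20 CPM or more over the 4 classes were at least 2-fold higher in cKO (5.99%) and 241 in WT (4.7%). In turn 236 were at least 2-fold lower in cKO (4.6%) and 170 in WT (3.31%). Since the cells were chosen by replication genes, these counts describe the class and test nothing. Named genes are the 20 highest and the 15 lowest by the smaller of the libraries' log2 ratios, with the members of lists grouped by role.

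The helicase and its loaders were among the highest. Mcm3 was at 244 CPM (215 to 276) in S phase against 16.8 in non-cycling cKO Tregs. In WT Mcm3 was at 237 CPM (213 to 262) in S phase against 23.0 in non-cycling Tregs, log2 ratios of 3.51 and 3.11. Mcm7 was at 236 CPM in S phase against 14.3 in non-cycling cKO Tregs. In WT Mcm7 was at 190 CPM in S phase against 13.9 in non-cycling Tregs. Mcm2 (log2 3.14 in cKO and 2.69 in WT) and the GINS subunit Gins2 (3.45 in cKO and 3.04 in WT) were close to them. Cdc6, which loads the helicase in G1, was at 35.3 CPM in S phase against 0.35 in non-cycling cKO Tregs. In WT Cdc6 was at 17.004 CPM in S phase, 26 UMIs in 15 cells, against 0.29 CPM in non-cycling Tregs. Of 25 measured origin-licensing and helicase genes other than those of the rule, 18 in cKO and 17 in WT were at least 2-fold higher and none lower, with median log2 ratios of 1.74 and 1.41. Of all 8618 genes of 5 CPM or more, 6.18% in cKO and 4.68% in WT were that much higher, with medians of -0.07 and -0.09. Orc4 (0.24 in cKO and -0.13 in WT) and Dbf4, the regulatory subunit of the origin-firing kinase (0.32 in cKO and 0.24 in WT), were members that hardly differed.

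Fork genes were nearly all higher. Of all genes of at least 5 CPM, 6.18% in cKO and 4.68% in WT were at least 2-fold higher. Of 31 polymerase and fork factors, 28 were at least 2-fold higher in each library, with median log2 ratios of 2.06 in cKO and 1.70 in WT. The polymerase delta subunit Pold4 was the lowest of them (-0.73 in cKO and -0.50 in WT). Pcna was at 392 CPM (355 to 433) in S phase against 78.5 in non-cycling cKO Tregs. In WT Pcna was at 367 CPM (337 to 399) in S phase against 87.9 in non-cycling Tregs. The primase subunit Prim1 (log2 3.45 in cKO and 2.96 in WT), the clamp loader subunit Rfc4 (3.20 in cKO and 2.89 in WT) and Clspn, a fork protein of the replication checkpoint (3.38 in cKO and 2.89 in WT), stood among the 20 highest. Pold4 was also the only gene of the list with a negative ratio in either library.

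For deoxynucleotide supply, 9 of 14 genes were at least 2-fold higher in each library, against 6.18% of all genes in cKO and 4.68% in WT. Thymidine kinase Tk1 was at 96.1 CPM in S phase against 4.13 in non-cycling cKO Tregs. In WT Tk1 was at 69.3 CPM in S phase against 6.24 in non-cycling Tregs. Samhd1, which degrades deoxynucleotides, went the other way, with 221 CPM in S phase against 446 in non-cycling cKO Tregs and 140 CPM in S phase against 293 in non-cycling WT Tregs, just past 2-fold in WT and just short of it in cKO.

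**Figure D2:**
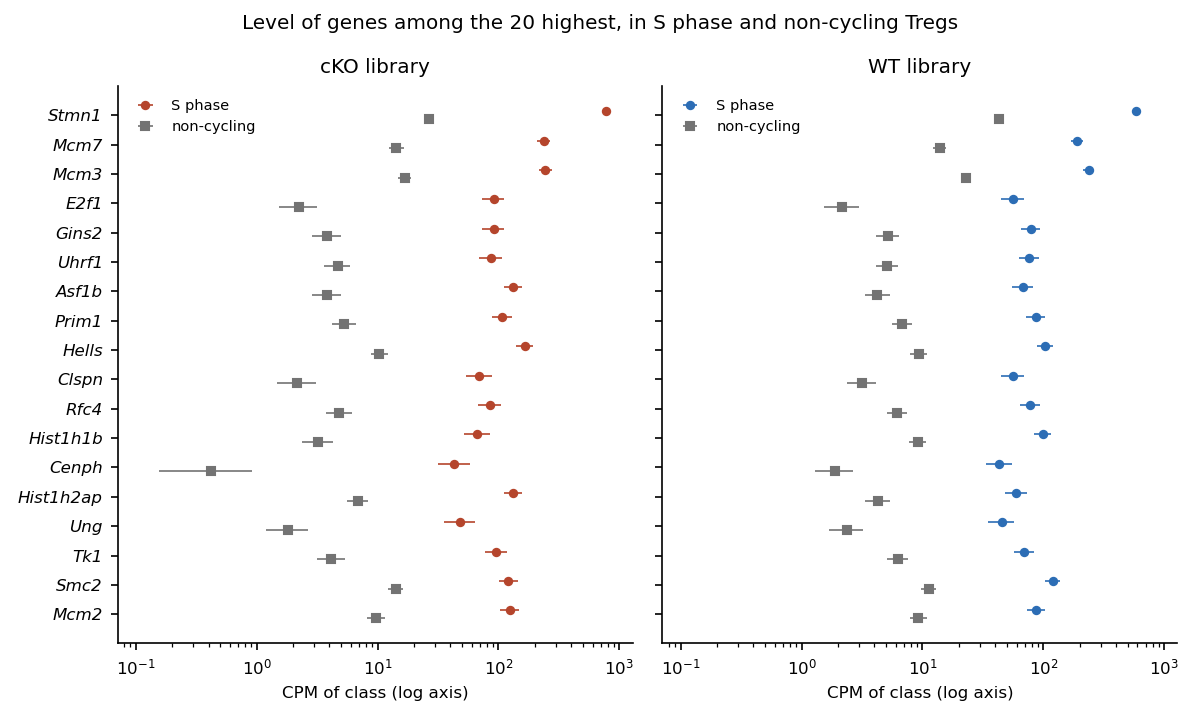
CPM (log axis) of genes among the 20 highest in S phase Tregs in cKO (left) and WT (right), coloured circles for S phase and grey squares for non-cycling Tregs, with exact Poisson 95% intervals that cover counting error only. Every S phase value lies to the right of its non-cycling value in both libraries.

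Chromatin assembly followed, with 19 of 24 genes in cKO and 17 of 24 in WT at least 2-fold higher and median log2 ratios of 1.67 and 1.47. Of all genes of at least 5 CPM, 6.18% in cKO and 4.68% in WT were that much higher. The histone chaperone Asf1b was at 132 CPM in S phase against 3.78 in non-cycling cKO Tregs. In WT Asf1b was at 67.4 CPM in S phase against 4.24 in non-cycling Tregs. Uhrf1, which brings DNA methylation to new strands, had log2 ratios of 3.24 in cKO and 3.01 in WT, and the remodeller Hells 3.47 and 2.92. Replication-dependent histone genes are poorly caught by poly(A) priming, and 25 of 64 were measured. Of these, 14 in cKO and 12 in WT were at least 2-fold higher (medians 1.09 and 0.97). At least 2-fold lower were 2 in cKO and 1 in WT, against 4.32% and 2.77% of all genes. The cKO median was 0.16 for S phase Tregs with 0 mitotic UMIs. The WT median was -0.28 when set against all other gated Tregs. Linker histone Hist1h1b was at 66.7 CPM in S phase against 3.22 in non-cycling cKO Tregs. In WT Hist1h1b was at 99.4 CPM in S phase against 9.19 in non-cycling Tregs. The H2A gene Hist1h2ap was at 132 CPM against 6.86 in cKO and 59.5 CPM against 4.30 in WT. Single cells held much of both: 1 WT cell held 38.8% of the WT S phase UMIs of Hist1h1b and 1 cKO cell 38.5% of the cKO S phase UMIs of Hist1h2ap.

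Among the E2F factors and G1/S cyclins, 20 of 25 genes in cKO and 16 of 25 in WT were at least 2-fold higher. The shares over all genes of at least 5 CPM were 6.18% in cKO and 4.68% in WT. E2f1 was at 91.2 CPM (73.6 to 112) in S phase against 2.24 in non-cycling cKO Tregs. In WT E2f1 was at 55.6 CPM (44.4 to 68.7) in S phase against 2.18 in non-cycling Tregs. The repressor E2f8 was at 11.8 CPM in S phase against 0.07 in non-cycling cKO Tregs. In WT E2f8 was at 6.54 CPM in S phase against 0.29 in non-cycling Tregs. Cyclin E1 (Ccne1) was at 41.2 CPM in S phase against 3.36 in non-cycling cKO Tregs. In WT Ccne1 was at 18.3 CPM in S phase against 2.003 in non-cycling Tregs. Cyclin E2 (Ccne2) was at 22.6 CPM against 1.05 in cKO and 27.5 CPM against 2.71 in WT. By contrast, the D cyclins, which act earlier in G1, lay close to the non-cycling level, with log2 ratios of -0.18 in cKO and -0.02 in WT for Ccnd2 and of 0.37 in cKO and -0.09 in WT for Ccnd3. Their kinase Cdk4 was higher (log2 2.16 in cKO and 1.65 in WT). The inhibitor Cdkn1b (p27) was lower, at 71.6 CPM in S phase against 162 in non-cycling cKO Tregs. In WT Cdkn1b was at 63.4 CPM in S phase against 178 in non-cycling Tregs. Cdkn1a (p21) was lower by less (log2 -0.47 in cKO and -0.85 in WT).

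Repair and checkpoint genes were at least 2-fold higher for 20 of 28 in cKO and 17 of 28 in WT. Of all genes of at least 5 CPM, 6.18% in cKO and 4.68% in WT were that much higher. Ung, which removes uracil from DNA, was at 48.1 CPM in S phase against 1.82 in non-cycling cKO Tregs. In WT Ung was at 45.1 CPM in S phase against 2.36 in non-cycling Tregs. Genes of G2 and mitosis other than those of the rule were higher too, 26 of 30 in cKO and 20 of 30 in WT by at least 2-fold. The non-cycling class they were set against was itself chosen for holding no UMI of Mki67 or Top2a. Stmn1, a microtubule destabiliser, was at 768 CPM (715 to 824) in S phase against 26.6 in non-cycling cKO Tregs. In WT Stmn1 was at 583 CPM (546 to 623) in S phase against 43.1 in non-cycling Tregs. The condensin subunit Smc2 (log2 2.71 in cKO and 2.93 in WT) and the kinetochore gene Cenph (3.15 in cKO and 2.81 in WT) were also among the 20 highest. Set against all other gated Tregs, which include the S-and-mitotic ones, the WT median of the G2 and mitosis list changed sign (1.45 against non-cycling, -0.36 against all others), and so did Hist1h1b (-0.92) and Hist1h2ap (-0.80) in WT.

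The S phase Tregs were not uniform along the cycle. They were split by their UMIs of Mki67 and Top2a, which the S phase rule did not use: 33 cKO and 34 WT cells held 1 to 5, and 25 cKO and 24 WT cells held 6 or more. Cyclin A2 (Ccna2), which drives S phase and G2, was at 12.5 CPM in cKO and 5.93 in WT in the first set, at 128 in cKO and 44.9 in WT in the second and at 185 in cKO and 117 in WT in S-and-mitotic Tregs. The mitotic kinase Cdk1 followed the same order, at 32.1, 182 and 201 CPM in cKO and 28.2, 88.1 and 160 CPM in WT. Cenpf, a late kinetochore gene, was low below the mitotic cap, at 0 and 12.8 CPM in the cKO sets and 4.45 and 6.65 CPM in the WT sets against 98.5 CPM in cKO and 124 CPM in WT S-and-mitotic Tregs. E2f1 and Ung, by contrast, were lower past the cap than in either of these sets. E2f1 was at 87.4 and 113 CPM in the cKO sets and at 50.4 and 79.8 CPM in the WT sets, against 29.1 CPM in cKO and 30.4 CPM in WT S-and-mitotic Tregs. Ung was at 53.5 and 35.9 CPM in the cKO sets and at 29.65 and 71.5 CPM in the WT sets, against 10.5 CPM in cKO and 16.1 CPM in WT S-and-mitotic Tregs. Between the first and second sets it thus ran opposite ways in the libraries. The S phase Tregs with no UMI of Mki67 or Top2a, 3 in cKO and 12 in WT, had E2f1 at 0 UMIs in cKO and at 11.85 CPM in WT (2.44 to 34.6), below the S-and-mitotic level, and Ung at 73.0 CPM in cKO and 23.7 CPM in WT. Median depth was 14500 and 14440 UMIs in the cKO sets and 18390 and 23660 in the WT sets. The part of depth in the WT order was not tested.

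**Figure D3:**
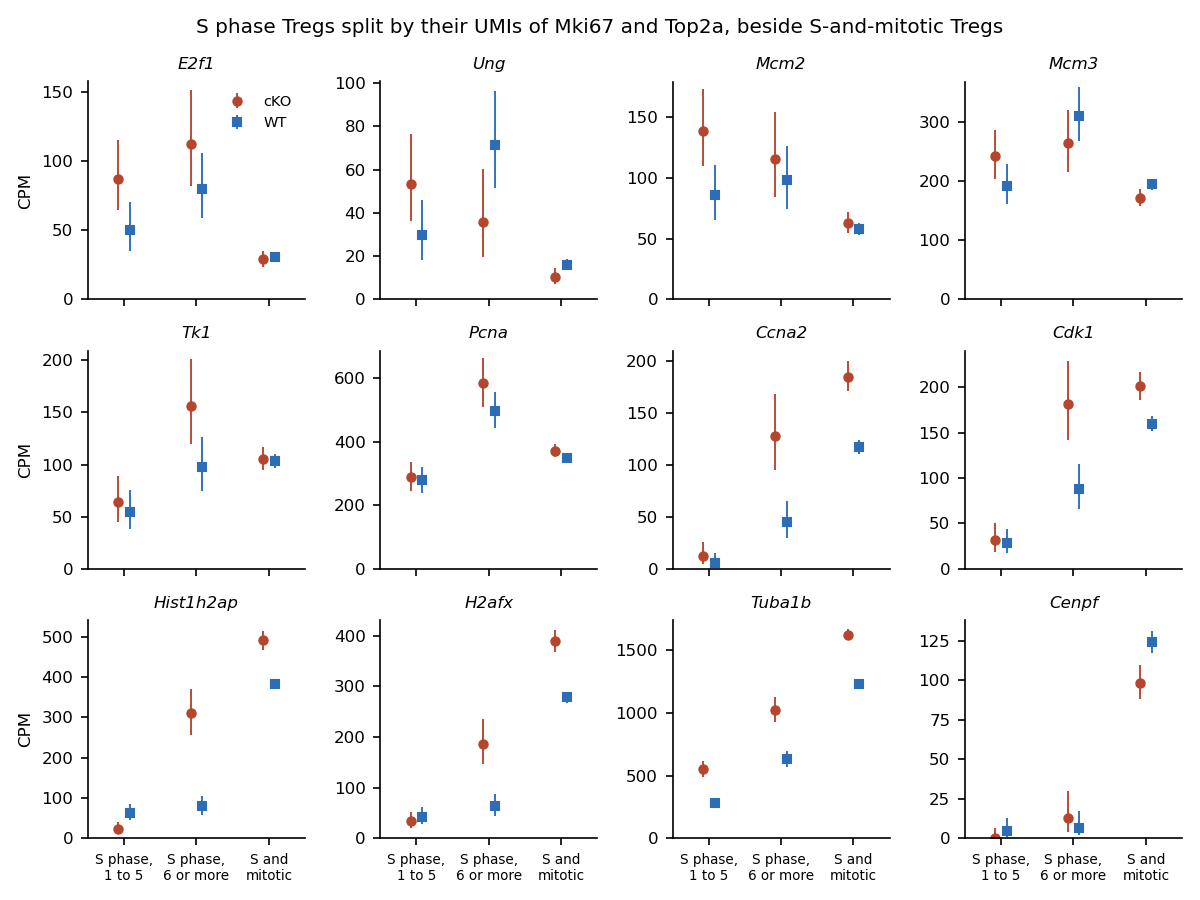
CPM of 12 genes in S phase Tregs with 1 to 5 and with 6 or more UMIs of Mki67 and Top2a, and in S-and-mitotic Tregs, circles for cKO and squares for WT, with exact Poisson 95% intervals that cover counting error only. Of the 3 classes drawn, E2f1, Ung and Mcm2 are lowest in S-and-mitotic Tregs, while Ccna2, Hist1h2ap, H2afx, Tuba1b and Cenpf are highest there.

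Across all genes, few separated S phase from S-and-mitotic Tregs. At least 2-fold higher in S phase were 18 of 5129 genes in cKO (0.351%) and 24 in WT (0.468%), and at least 2-fold lower were 46 in cKO (0.897%) and 39 in WT (0.76%). Replication-dependent histones were lower in S phase Tregs for 15 of 25 genes in cKO and 20 of 25 in WT, with median log2 ratios of -1.12 and -1.54, against 1.53% and 1.25% of all genes of at least 5 CPM. G2 and mitosis genes, close to those of the cap, were lower for 22 of 30 in cKO and 27 of 30 in WT. Origin-licensing genes had medians of 0.23 in cKO and 0.03 in WT and none past 2-fold higher, against 0.487% and 0.383% of all genes.

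On the other side of the comparison, genes of rest and tissue exit were lower in S phase Tregs. Klf2, a transcription factor of resting T cells that maintains S1pr1, was at 50.02 CPM (37.2 to 65.8) in S phase against 300.2 in non-cycling cKO Tregs and at 17.7 CPM (11.6 to 25.7) in S phase against 128 in non-cycling WT Tregs. The interleukin-7 receptor Il7r was at 76.5 CPM in S phase against 218 in non-cycling cKO Tregs. In WT Il7r was at 141 CPM in S phase against 375 in non-cycling Tregs. Of 23 genes of the quiescence list, 11 in cKO and 12 in WT were at least 2-fold lower and none higher, with medians of -0.88 and -1.01, against 4.32% and 2.77% of all genes. By the smaller of the libraries' log2 ratios Tcp11l2 stood lowest, though Ifit1 was lower in cKO (-3.54). Tcp11l2 had 3 UMIs in cKO and 4 in WT S phase Tregs (2.94 and 2.62 CPM). In non-cycling Tregs it was at 56.3 CPM in cKO and 44.5 CPM in WT. Counting intervals of its log2 ratio without added CPM ran from -6.54 to -2.70 in cKO and from -5.97 to -2.73 in WT. Others were the Schlafen family gene Slfn5 (-1.88 in cKO and -2.08 in WT), the H3K4 demethylase Kdm5b (-1.87 and -2.02), the proapoptotic Bcl2l11 (Bim, -1.51 and -1.58), the chemokine Ccl5 (-2.50 and -1.46) and the phosphatase Dusp1 (-1.49 and -1.45). With them stood the inhibitory receptors Lilr4b (-1.99 in cKO and -1.70 in WT) and Lilrb4a (-1.63 and -1.34), the ubiquitin ligase Neurl3 (-2.07 and -1.54), Arhgap31 (-1.66 and -1.33), Tecpr1 (-1.39 and -1.37) and Klf6 (-1.40 and -1.32). Ifitm1, also among the 15 lowest, had 79.5% of its cKO and 92.7% of its WT S phase UMIs in 1 cell.

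Depth moved with these lower values. Against non-cycling Tregs matched 1 to 1 on total UMIs, 61 in cKO and 70 in WT, the quiescence medians were -0.51 in cKO and -0.52 in WT. Klf2 was at -0.82 in cKO and -1.32 in WT, and S1pr1, which lets T cells leave tissue, was at -0.32 in cKO and 0.51 in WT instead of -1.49 and -1.16. Most replication medians moved less, that of polymerase and fork genes being 2.14 in cKO and 1.59 in WT. Deoxynucleotide supply was an exception, with a median of 0.998 in cKO and 0.69 in WT in place of 1.61 and 1.32. At matched depth Mcm7 was at 3.67 in cKO and 3.28 in WT.

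Treg identity genes were somewhat lower in S phase Tregs. Foxp3, the lineage factor and part of the gate, was at 34.3 CPM in S phase against 65.1 in non-cycling cKO Tregs. In WT Foxp3 was at 22.9 CPM in S phase against 45.9 in non-cycling Tregs. Of the S phase Tregs, 37.7% of cKO and 38.6% of WT cells held a UMI of it. After thinning, these shares were 16.9% in cKO and 15.7% in WT S phase Tregs, 22.6% in cKO and 17.5% in WT non-cycling Tregs, and 0 of 175 cKO and 0 of 35 WT macrophages. As the background of the list counts below, 4.32% of all genes of at least 5 CPM in cKO and 2.77% in WT were at least 2-fold lower. Of 10 Treg core genes outside the gate, 1 was at least 2-fold lower in each library. It was Nt5e (CD73), with 47.1 CPM in S phase against 119 in non-cycling cKO Tregs and 75.2 CPM in S phase against 229 in non-cycling WT Tregs. The list's medians were -0.51 in cKO and -0.53 in WT, and -0.20 in cKO and 0.04 in WT at matched depth. Tumour effector genes had medians of -0.42 in cKO and -0.55 in WT, and 0.07 in cKO and -0.05 in WT at matched depth. Il10, the suppressive cytokine, was at 36.3 CPM in S phase against 103 in non-cycling cKO Tregs. In WT Il10 was at 8.50 CPM in S phase against 27.0 in non-cycling Tregs. Genes answering antigen receptor signals were at least 2-fold lower for 5 of 27 in cKO and 7 of 27 in WT (medians -0.56 and -0.78, and -0.26 and -0.33 at matched depth). Interleukin-2 and STAT5 genes were lower by that much for 5 of 21 in cKO and 3 of 21 in WT, with Socs3, a feedback inhibitor of cytokine signalling, lowest (-1.92 and -1.16). Their medians were -0.57 in cKO and -0.46 in WT, and -0.19 in cKO and -0.15 in WT at matched depth. Chemokine receptor and trafficking genes were lower for 4 of 20 in cKO and 7 of 20 in WT, with medians of -0.50 in each library, and of -0.24 in cKO and -0.23 in WT at matched depth.

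Type I interferon genes were lower in S phase Tregs. In cKO 14 of 23 were at least 2-fold lower in S phase than in non-cycling Tregs (median -1.14), against 3 of 23 in WT (median -0.69), and none was higher by that much. Of all genes of at least 5 CPM, 4.32% in cKO and 2.77% in WT were at least 2-fold lower. Ifit1 was at 8.83 CPM (4.04 to 16.8) in S phase against 156 in non-cycling cKO Tregs. In WT Ifit1 was at 98.1 CPM (83.0 to 115) in S phase against 130 in non-cycling Tregs. It was found in 6 of 61 cKO and 18 of 70 WT S phase Tregs, and 1 WT cell held 38.0% of the WT UMIs. Ifit3 was at 5.88 CPM against 60.2 in cKO and 37.9 CPM against 94.2 in WT. At matched depth the medians were -1.39 in cKO and -0.53 in WT, but under the thinned rule they were -0.98 in cKO and -0.99 in WT. The list's cKO over WT median in S phase Tregs was -0.15, and 0.44 under the thinned rule. The difference between the libraries was not tested and its size rests on the rule: under the thinned rule the cKO over WT log2 ratio of Ifit1 in S phase Tregs was -0.17 and without Cenpa in the cap -0.99, in place of -2.90.

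Growth genes were higher. As the background of the list counts below, 6.18% of all genes of at least 5 CPM in cKO and 4.68% in WT were at least 2-fold higher. At least 2-fold lower were 4.32% in cKO and 2.77% in WT. Of 28 MYC and ribosome biogenesis genes, 10 in cKO and 11 in WT were at least 2-fold higher and none lower (medians 0.75 and 0.77). Among them the spermidine synthase Srm was at 43.1 CPM in S phase against 12.3 in non-cycling cKO Tregs. In WT Srm was at 61.5 CPM in S phase against 8.30 in non-cycling Tregs. Gar1, a factor of ribosomal RNA modification, was at 1.67 in cKO and 1.48 in WT on the log2 scale. Of 19 purine and pyrimidine genes, 9 in cKO and 7 in WT passed 2-fold, with CTP synthase Ctps at 1.81 in cKO and 1.33 in WT and Impdh2, of guanine nucleotide synthesis, at 1.67 and 1.58. Serine and one-carbon genes passed 2-fold for 8 of 17 in cKO and 7 of 17 in WT. Shmt1, which feeds thymidylate synthesis, led them at 29.4 CPM in S phase against 1.12 in non-cycling cKO Tregs. In WT Shmt1 was at 20.9 CPM in S phase against 0.53 in non-cycling Tregs. All 26 respiratory chain genes had a positive log2 ratio in both libraries, but small ones (median 0.48 in each, 0.35 in cKO and 0.18 in WT at matched depth). The highest was the ATP synthase subunit Atp5g1 at 1.10 in cKO and 1.01 in WT. None of 18 glycolysis genes passed 2-fold either way (medians 0.14 and 0.11), and of 19 cholesterol synthesis genes only Fdps in WT did (1.21). Of 20 apoptosis regulators, 1 (Birc5) was at least 2-fold higher in each library, and 1 in cKO and 2 in WT were at least 2-fold lower. The medians of that list were -0.24 in cKO and -0.17 in WT. Of 9 replacement histones H2afx was the highest (1.28 in cKO and 0.67 in WT). Of 18 genes of H3K9 demethylases, methyltransferases and related factors, the list that holds Jmjd1c, 3 passed 2-fold higher and 1 lower in each library. The higher ones were the maintenance factor Uhrf1, the heterochromatin protein gene Cbx5 (1.75 in cKO and 1.60 in WT) and the methyltransferase Suv39h1 (1.66 and 1.38), and the lower was Kdm7a (-1.32 and -1.09). Jmjd1c itself was at -0.45 in cKO and -0.81 in WT.

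**Figure D4:**
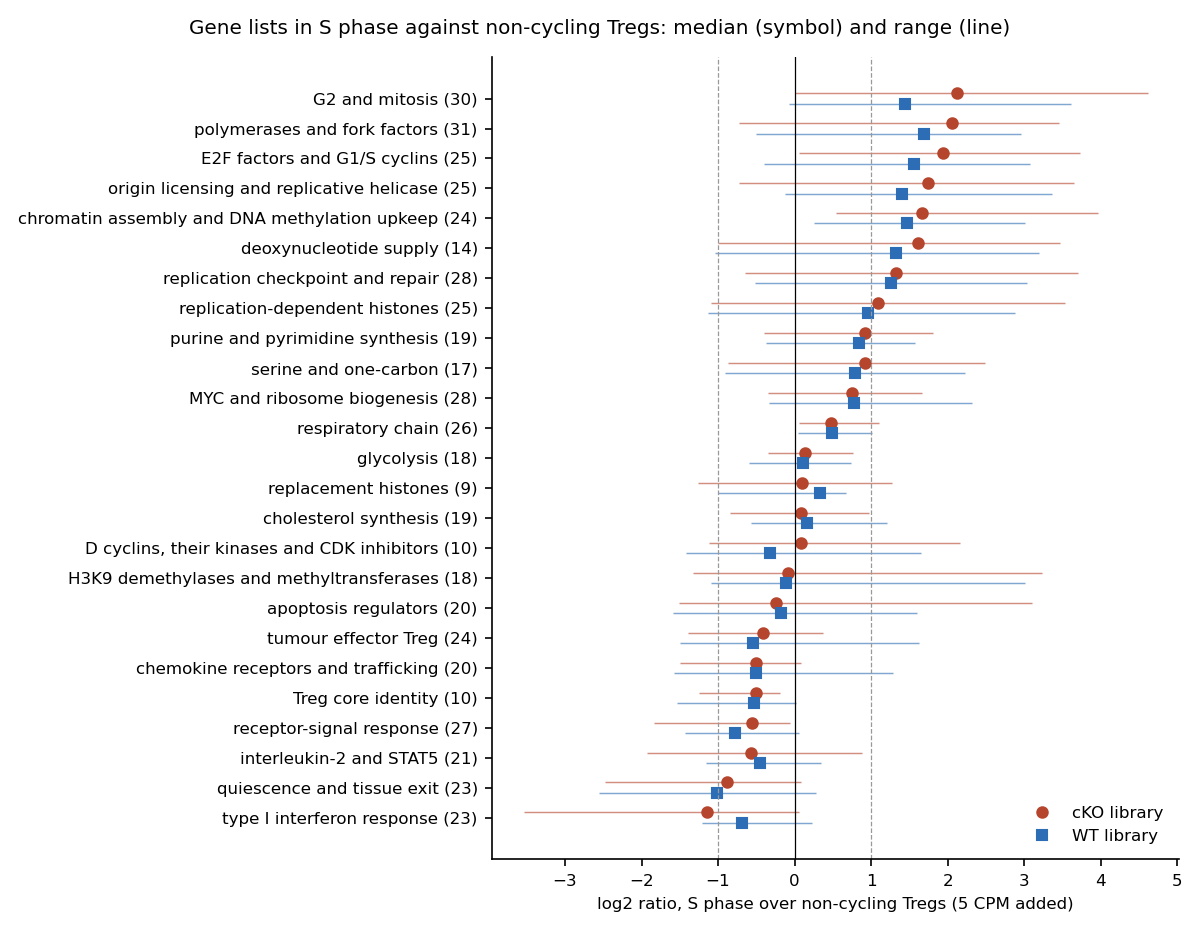
Log2 ratios of S phase over non-cycling Tregs (5 CPM added) for 25 gene lists, with the number of measured genes in brackets, circles for the cKO median above squares for the WT median and lines for the range over genes; dashed lines mark 2-fold. Replication lists lie past 2-fold higher or close to it in both libraries, and the lowest medians are those of the interferon and quiescence lists in cKO and of the quiescence and receptor-signal lists in WT.

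Between the genotypes, replication genes of S phase Tregs lay closer together than a number of effector genes, which was not tested. The same minimum of replication transcripts chose the cells in both libraries, so this closeness describes the class and tests nothing. Of 5057 genes averaging 20 CPM or more, 102 were at least 2-fold higher in cKO than in WT S phase Tregs (2.02%) and 91 lower (1.8%). The counts were 65 higher (1.28%) and 64 lower (1.26%) of 5073 genes in non-cycling Tregs. These counts include sex-linked genes. Those in S phase Tregs rest on 61 and 70 cells and those in non-cycling Tregs on 2048 and 1950, and the part of cell number in them was not tested. Of 31 polymerase and fork genes none passed 2-fold (median 0.19), and of 26 origin-licensing genes 1 was higher (median 0.21), against 1.94% higher and 2.64% lower of all 8517 genes of at least 5 CPM. Pcna had a cKO over WT log2 ratio of 0.10 and Mcm3 of 0.04. Of 33 G2 and mitosis genes, 8 were at least 2-fold higher in cKO S phase Tregs and none lower, with a median of 0.47 that was 0.14 under the thinned rule. In non-cycling Tregs 0 of 11 passed, where 0.951% of all genes were past 2-fold higher and 1.17% lower. The kinetochore genes Spc24, at 106 CPM (86.9 to 128) in cKO against 35.3 CPM (26.5 to 46.1) in WT, and Nuf2, at 20.6 CPM in cKO against 2.62 CPM in WT, were among them. Another was Birc5 (survivin), at 68.7 CPM in cKO against 28.8 CPM in WT. Mki67, which the comparison class but not the S phase rule used, was at 189 CPM (164 to 218) in cKO against 71.3 CPM (58.5 to 86.0) in WT. Under the thinned rule, which takes cells at equal depth, Spc24 was at 0.52, Nuf2 at 0.48 and Birc5 at 0.42. Thinning lowers the mitotic sum too, so that rule takes other cells. Their G2 and mitosis median against non-cycling Tregs was 2.97 in cKO and 2.70 in WT, in place of 2.12 and 1.45.

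Of 27 E2F factors and G1/S cyclins, 2 were at least 2-fold higher in cKO S phase Tregs (E2f2 and Ccna2) and none lower, against the 1.94% and 2.64% of all genes. Their median of 0.50 was 0.064 under the thinned rule. E2f2 was at 30.4 CPM (20.7 to 43.2) in cKO against 9.16 CPM (5.01 to 15.4) in WT. Cyclin D3 (Ccnd3) was at 167 CPM (143 to 194) in cKO against 69.3 CPM (56.8 to 83.8) in WT. In non-cycling Tregs Ccnd3 was at 128 in cKO against 74.0 in WT. E2f2 was at 9.74 in cKO against 7.48 in WT non-cycling Tregs. Under the thinned rule the cKO over WT log2 ratios in S phase Tregs were 0.28 for E2f2, 1.11 for Ccnd3 and 0.43 for Ccne1, in place of 1.32, 1.21 and 0.99. Ccne1 was found in 18.6% of cKO S phase Tregs thinned to 4300 UMIs (11 of 59, 9.69 to 30.9) and in 2.86% of WT ones (2 of 70, 0.348 to 9.94). Unthinned it was in 39.3% in cKO and 22.9% in WT. Thinned macrophages had it in 1.71% in cKO and 0 of 35 cells in WT. Ccne2 did not share this, with a log2 ratio of -0.24. Myc was at 64.7 CPM (50.1 to 82.4) in cKO against 22.9 CPM (15.9 to 31.8) in WT S phase Tregs and at 32.9 in cKO against 16.96 in WT non-cycling Tregs.

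Of the 12 highest genes, the largest difference that many cells carried was in Gzmb (chr14:56258838-56262260, mm10), the protease granzyme B. It was at 2865 CPM (2762 to 2971) in cKO against 207 CPM (185 to 231) in WT S phase Tregs, and at 4529 in cKO against 594 in WT non-cycling Tregs, log2 ratios of 3.76 and 2.92. After thinning, 88.1% of cKO (77.1 to 95.1) and 17.1% of WT S phase Tregs (9.18 to 28.0) held a UMI of it, against 85.1% of cKO and 34.0% of WT non-cycling Tregs. Macrophages held it in 11.4% of cells in cKO and 0 of 35 in WT. Unthinned, the shares were 90.2% in cKO and 34.3% in WT S phase Tregs. Across the alternatives run, its log2 ratio in S phase Tregs lay between 2.87 and 4.26.

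Of 24 tumour effector genes, 10 were at least 2-fold higher in cKO S phase Tregs and 3 lower, against 5 higher and 2 lower in non-cycling Tregs. The 10 included Ly6c2, with over 50% of its cKO S phase UMIs in 1 cell. Its ratio without the cells that held most Fcer1g and Tyrobp is given below. Of all genes of at least 5 CPM, 1.94% were that much higher and 2.64% lower in S phase Tregs. In non-cycling Tregs these shares were 0.951% and 1.17%. Icos, a costimulatory receptor, was at 1186 CPM (1120 to 1254) in cKO against 525 CPM (489 to 563) in WT S phase Tregs. Lag3, an inhibitory receptor, was at 162 CPM in cKO against 37.9 CPM in WT, and the chemokine receptor Ccr2 at 233 CPM against 58.9 CPM. The interleukin-33 receptor Il1rl1 was at 141 CPM in cKO against 25.5 CPM in WT. Cd27, a costimulatory receptor, was at 222 CPM in cKO against 104 CPM in WT, Itgae, the αE integrin chain, at 68.7 CPM against 26.8 CPM, and Il10 at 36.3 CPM (25.6 to 50.02) against 8.50 CPM (4.53 to 14.5). Gpr18 (log2 2.17) and Igsf23 (2.36) were also among the 12 highest genes, with no single cell dominating. In non-cycling Tregs each of these was also higher in cKO, with log2 ratios from 0.85 for Icos to 1.92 for Gpr18.

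Genes lower in cKO S phase Tregs were led by Tff1, a trefoil peptide gene, at 10.8 CPM (5.39 to 19.3) in cKO against 258 CPM (233 to 284) in WT. Itga4, the α4 integrin chain, was at 14.7 CPM (8.23 to 24.3) in cKO against 185 CPM (164 to 208) in WT and was found in 10 of 61 cKO and 62 of 70 WT cells. Rgs2, a regulator of G protein signalling, was at 97.1 CPM in cKO against 539 CPM in WT, and Pdcd1 (PD-1) at 128 CPM (107 to 152) in cKO against 349 CPM (320 to 379) in WT. After thinning, Pdcd1 was in 30.5% of cKO (19.2 to 43.9) and 62.9% of WT S phase Tregs (50.5 to 74.1), with 0 of 175 cKO and 0 of 35 WT macrophages. Unthinned the shares were 57.4% in cKO and 97.1% in WT S phase Tregs. Ier5l (log2 -2.45), Tnfsf8 (-2.47), Trps1 (-2.28), Hmgn3 (-2.21), Ifit1 (-2.90) and Nrn1, with 3 UMIs in cKO against 84 in WT (counting interval of the log2 ratio -6.53 to -2.63), were also among the 12 lowest. All of these but Ifit1 (0.25) were lower in cKO non-cycling Tregs too. Treg core genes had 1 of 10 past 2-fold, Nrp1, at 10.8 CPM in cKO against 40.5 CPM in WT. Of all genes of at least 5 CPM, 1.94% were at least 2-fold higher and 2.64% lower.

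**Figure D5:**
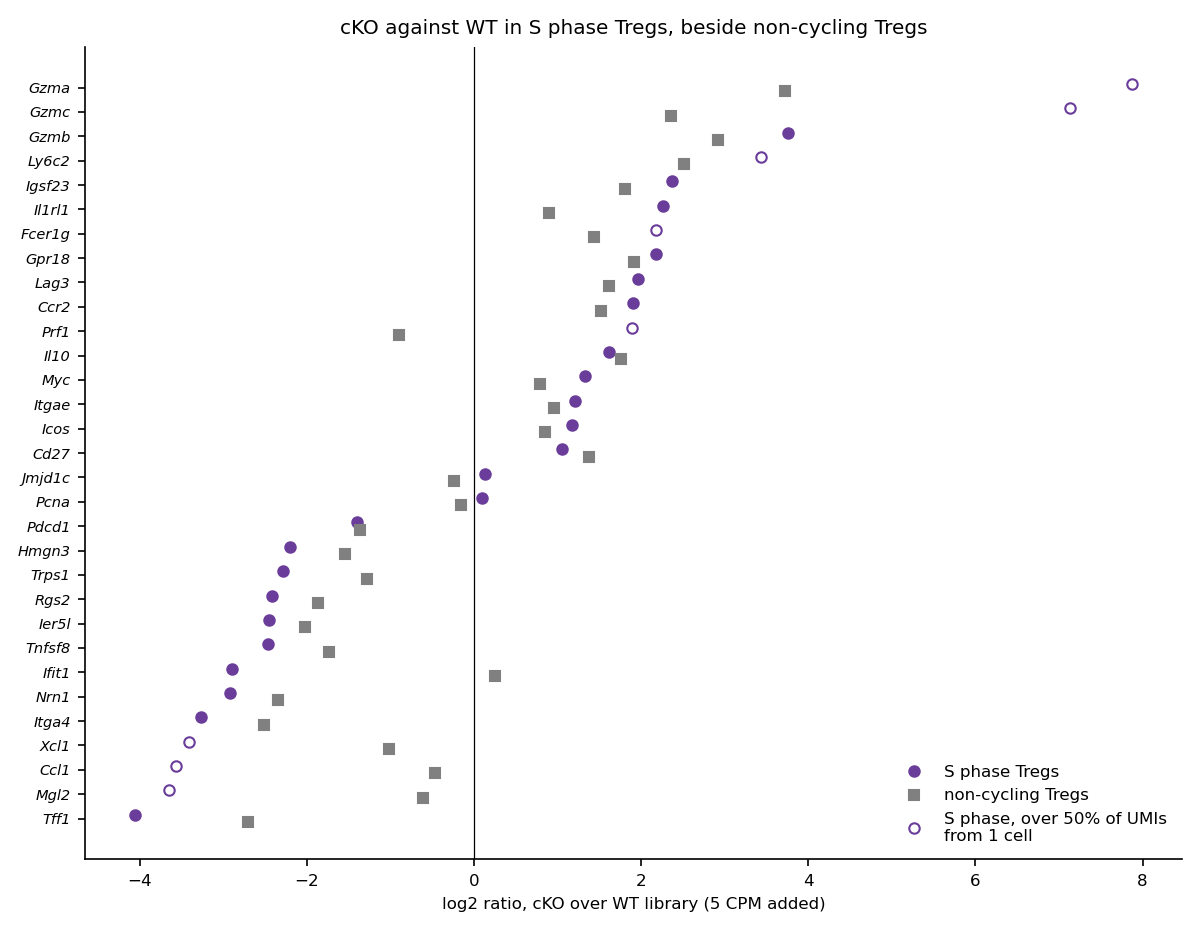
Log2 ratios of cKO over WT (5 CPM added) in S phase Tregs (circles) and non-cycling Tregs (grey squares) for genes among the 12 highest and 12 lowest in S phase Tregs and for 8 further genes named by role; open circles mark genes with over 50% of S phase UMIs in 1 cell of the library that had more. Most genes lie on the same side of 0 in both classes; Prf1, Ifit1 and, close to 0, Jmjd1c and Pcna do not.

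A few S phase cells held transcripts of other lineages. Fcer1g and Tyrobp, adaptor chains of natural killer and myeloid cells, summed to at least 10 UMIs in 3 cKO and 1 WT S phase cells. Of these cKO cells, 1 held 19 UMIs of the natural killer receptor Ncr1 and none of the T cell receptor constant gene Trac. This cell and another held 420 and 1081 of the 1505 cKO S phase UMIs of granzyme A (Gzma) and 670 and 315 of the 991 of granzyme C (Gzmc). Gzma had 1505 UMIs in cKO against 2 in WT S phase Tregs (counting interval of the log2 ratio 8.28 to 13.19), and Gzmc 991 against 3 (7.40 to 11.23). Perforin (Prf1) had 61 UMIs in cKO against 19 in WT and Ly6c2 had 79 against 4. Without the 4 cells the log2 ratios of cKO over WT were 0.54 for Gzma, 0.70 for Gzmc, 0.17 for Ly6c2, -1.55 for Prf1 and -0.46 for Fcer1g, in place of 7.88, 7.13, 3.44, 1.90 and 2.18, and that for Gzmb was 3.61. Of 9 macrophage or monocyte markers, 6 had a UMI in cKO and 7 in WT S phase Tregs, and the sum was 346 CPM in cKO and 86.3 CPM in WT, with C1qa at 0 in both. Of 4 natural killer markers, 3 had a UMI in cKO (28 UMIs in 2 cells) and none in WT. Cd8a was at 0 in cKO, neutrophil markers summed to 0 UMIs in cKO and 1 in WT, dendritic cell markers to 3 in cKO and 10 in WT. Erythroid markers summed to 8 in cKO and 10 in WT, fibroblast markers to 1 and 0, and epithelial or tumour markers to 6 and 20. B cell markers summed to 132 CPM in cKO and 107 in WT with the defining Ms4a1 at 0 in both. Beyond the values without these cells, their part in the results was not tested.

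Several genes with the widest gaps between S phase and non-cycling Tregs rested on single cells as well. Over 50% of the S phase UMIs in the library that had more came from 1 cell for 5 of the 8 genes whose cKO over WT log2 ratio exceeded that in non-cycling Tregs the most (Cst3, Cxcl2, Gzma, Gzmc and Prf1). The same held for 7 of the 8 with the opposite gap (Ccl1, Cxcl9, Hspa1a, Hspa1b, Il1b, Terf2ip and Xcl1). The others were Birc5, Spc24 and Spp1 on the one side and Ifit1 on the other. Of the 12 lowest genes in cKO against WT S phase Tregs, Ccl1, Mgl2 and Xcl1 were of this kind, with 95.5%, 98.9% and 63.2% of their WT UMIs in 1 cell. Mgl2 had 0 UMIs in cKO S phase Tregs, which at a floor of 3 UMIs for the class is at least 19.6-fold lower than the 57.55 CPM in WT. Xcl1 had 2 UMIs in cKO against 106 in WT (counting interval of the log2 ratio -8.21 to -3.25).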

How the data were processed

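Single-cell 3′ RNA counts were analysed from 1 cKO and 1 WT library. Per the file headers and the labels, the authors deposited 1 matrix of unnormalised UMI counts (genes by barcodes) for each library, made with Cell Ranger 5.0.1 on mm10 per the submitters' processing notes. The members and gene lists were chosen with earlier results of these data known. UMIs were summed over the cells of a class and library and scaled to CPM, and ratios were taken with 5 CPM added, for genes averaging 20 CPM or more (5 CPM for lists) over the classes compared. Named genes were the 20 highest and 15 lowest in S phase against non-cycling Tregs by the smaller of the libraries' ratios, the 12 highest and 12 lowest in cKO against WT, the 8 with the widest gap each way between S phase and non-cycling Tregs, up to 4 per list (25 lists, with marker lists for 9 other cell types) and a set of regulators; the rule's genes, receptor segments, mitochondrial, unnamed, Xist, Tsix and Y-linked genes were left out of rankings. Cdc6, Orc4, Dbf4, Pold4, Cbx5, Suv39h1, Cenpf, Tuba1b and H2afx were named as list members after their values were seen. Some genes that the naming rule takes in are not reported here. Intervals are exact (Poisson for CPM, Clopper-Pearson for shares) at 95%, and no p-value was computed, since each group is 1 library. For equal depth, cells were thinned to 4300 UMIs. Macrophages held 10 or more UMIs of Lyz2, C1qa and C1qb together and none of Cd3d, Cd3e and Cd3g. Doublets were not removed: Scrublet called 0 cells in cKO and 1 in WT and was taken as not having worked. 3′ UMIs of histone genes, a multigene family, and of overlapping genes may be misassigned. Gene positions came from GENCODE M21, which matched 32158 of 32285 gene IDs. The ratio code was tested on simulated data. Python 3.11.15, numpy 2.4.6, scipy 1.17.1, pandas 2.3.3, scanpy 1.11.5 and matplotlib 3.10.9 were used, and 15 alternative settings were run.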

Additional observations from a re-analysis of the deposited data

Results flagged for a closer look

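In Ccl1 and Mgl2 the S phase against non-cycling log2 ratio ran opposite ways in the libraries, which was not tested. For Ccl1, a chemokine, it was -1.161 in cKO and 1.937 in WT, with 9 UMIs in 1 of 61 cKO and 243 UMIs in 7 of 70 WT S phase Tregs, 95.5% of the WT UMIs in 1 cell. For Mgl2, a lectin of myeloid cells, it was -1.122 in cKO and 1.914 in WT, with 0 UMIs in cKO and 88 UMIs in 2 WT S phase Tregs, 98.9% of them in 1 cell.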

How the results depend on the processing

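Depth limits these results: 61 and 70 cells hold 1019632 and 1529064 UMIs. No paired analysis was possible because each group has 1 library, and no library could be left out. The mitotic cap without Cenpa, the removal of cells with 10 or more UMIs of Fcer1g and Tyrobp, and the removal of the top cell per gene were chosen after seeing the data. Of the alternative values, 938 of the list medians moved by less than counting error, 136 by more and 1 reversed, and for single genes these were 2274, 471 and 17. Further list medians changed sign without being counted as reversed. The WT median of replication-dependent histones, for example, was 0.97 against non-cycling and -0.28 against all other gated Tregs. The causes were not tested except where fewer cells or genes entered. With 20 CPM added, cKO had 181 genes at least 2-fold higher and 93 lower in S phase, WT 137 and 72, cKO against WT 47 and 46 in S phase and 40 and 36 in non-cycling Tregs. With no filter on low values these were 587 and 410, 426 and 256, 180 and 283, and 102 lower in non-cycling Tregs. With 10 or more S phase UMIs (37 and 35 cells) WT had 272 lower, the shares were 1.30% in cKO and 1.08% in WT, and the cKO over WT ratios of Fcer1g (-0.41), Prf1 (-1.76), Ccl1 (1.29) and Gzma (-0.31) reversed. With 0 mitotic UMIs (16 and 19 cells) cKO had 486 and WT 373 lower, cKO against WT had 341 higher and 286 lower, the shares were 0.561% in cKO and 0.586% in WT, and Ifitm1 in WT (0.24), Fcer1g (-4.85), Prf1 (-2.38), Ccl1 (1.80) and Ly6c2 (-1.04) reversed. With Cd8 and Lyz2/C1q sums of 0, Mgl2 was at 0. Under the thinned rule the cKO share was 3.13%, and Prf1 (-1.84) and Gzma (-1.58) reversed. Against all other gated Tregs, cKO had 155 lower, WT 67 higher and 68 lower, and in WT Hist1h1b (-0.92), Hist1h2ap (-0.80) and the G2 and mitosis median (-0.36) reversed. At matched depth S1pr1 reversed in WT (0.51). Without the Fcer1g and Tyrobp cells, Fcer1g (-0.46) and Prf1 (-1.55) reversed. Without Cenpa in the cap the shares were 3.19% in cKO and 4.63% in WT.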
